A study of Mus musculus with 16 samples.

Results

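The promoters described here belong to 10 genes of hepatic lipogenesis: Acly, Acaca, Acacb, Fasn, Me1, Elovl6, Elovl5, Elovl3, Scd1 and Thrsp. Their contacts were measured by Promoter Capture Hi-C (P-CHi-C), in which crosslinked chromatin is cut with HindIII, neighbouring ends are ligated, and the products that hold a promoter fragment (a bait) are captured and sequenced. A contact is a listed pair of HindIII fragments with an end on the bait that holds the start of the gene. For 9 of the 10 genes the start lay on a listed bait, and these baits had 277 of the 247177 distinct interactions in the lists and are 9 of 18165 baits. The score of a pair comes from CHiCAGO, which compares its reads with a background modelled from distance and technical noise, and the lists hold scores of at least 5.

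De novo lipogenesis turns surplus carbohydrate into fatty acids in the liver. Citrate from mitochondria is split into acetyl-CoA, which is carboxylated to malonyl-CoA, joined into palmitate by fatty acid synthase, and then elongated and desaturated. The genes of the pathway are known targets of SREBP1c, ChREBP and LXR, and several follow feeding and the circadian clock.

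All livers came from wild type male C57BL/6 mice fed ad libitum, with 12 h light and 12 h dark per day. The labels give an age of 8 weeks, which in the methods is the age before housing in this cycle. The livers were taken at lights on (ZT0, with zeitgeber time ZT in hours), in the light at ZT6, at lights off (ZT12) and in the dark at ZT18, as 3 pools of 2 livers each time. Pool A was sequenced on 2 lanes, so that each timepoint has 4 samples and the series 16. The samples were merged into 1 list per timepoint before interactions were called, so no value below has a replicate error and no difference between timepoints could be tested. The shortest list was that of ZT0, with 146262 interactions, and the longest that of ZT6, with 154775. Totals in a summary of the series set the lists of ZT6, ZT12 and ZT18 in a different order from the sample labels. The labels were followed here, so every time other than ZT0 rests on them. With the other order the timepoints named for Fasn, Acaca, Scd1, Elovl6, Elovl5 and the other promoters change. Whole liver holds several cell types, and a contact frequent in few cells cannot be told apart from a rare contact in many. Cell type markers could not be checked in contact data.

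The sequences around the gene starts are shown for Elovl5 and Elovl6, the promoters with the most contacts, together with the fragment that gave the highest Fasn score. The promoter windows run from 250 bases before to 50 bases from the gene start, 5′ to 3′ along the gene, in build mm9. Capitals mark matches, on either strand, to the E-box CACGTG, which clock and ChREBP complexes can bind, to CCAAT, the box of NF-Y, and to GGGCGG, the GC box of Sp1. In the contacted fragment, capitals mark what HindIII leaves of its site at each end.
Elovl5 promoter, chr9:77764921-77765220, plus strand: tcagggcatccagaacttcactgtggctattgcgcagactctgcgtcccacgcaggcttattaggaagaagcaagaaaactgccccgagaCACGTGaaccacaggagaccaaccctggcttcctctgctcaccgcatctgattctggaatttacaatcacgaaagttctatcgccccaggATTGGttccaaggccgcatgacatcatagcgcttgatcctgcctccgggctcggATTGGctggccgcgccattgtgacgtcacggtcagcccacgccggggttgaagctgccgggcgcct
Elovl6 promoter, chr3:129235054-129235353, plus strand: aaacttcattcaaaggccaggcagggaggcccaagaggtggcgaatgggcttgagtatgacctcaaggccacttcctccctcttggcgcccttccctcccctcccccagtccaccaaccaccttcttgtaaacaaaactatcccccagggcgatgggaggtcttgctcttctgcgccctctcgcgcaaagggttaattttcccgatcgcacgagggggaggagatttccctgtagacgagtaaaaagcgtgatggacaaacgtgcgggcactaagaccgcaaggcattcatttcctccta
Fragment contacted by Fasn, chr11:120764463-120764680, plus strand: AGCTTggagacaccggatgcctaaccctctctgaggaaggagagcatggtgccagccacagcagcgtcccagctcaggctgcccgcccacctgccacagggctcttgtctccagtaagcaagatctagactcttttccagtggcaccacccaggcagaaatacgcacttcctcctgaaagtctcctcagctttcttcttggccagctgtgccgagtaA

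The E-box letters occurred in 3 of the 10 windows, among them those of Acaca and Elovl5, while 7.78% of the 22352 windows of the same length at protein-coding genes held them. The CCAAT letters occurred in 5 of 10 (37.9% of all windows) and the GC box letters in 6 of 10 (43.4%). The Elovl5 window held 1 E-box and 2 CCAAT boxes, and the Elovl6 window none of the 3 motifs. The motifs were searched separately, so their matches can overlap, and a match in such letters is no measured binding site.

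The number of contacts differed widely between the promoters. The 9 promoters together had 173 contacts at ZT0, then 189, 167 and 186 at the later timepoints. Over the 4 lists the median promoter of the set had 11 contacts, against 9 for all baits. Elovl5 had 127 and Elovl3 had 3. The order from most to fewest was Elovl5, Elovl6 (45), Fasn (40), Acaca (32), Scd1 (11), Thrsp (7), Acly and Me1 (6 each) and Elovl3. Elovl5 alone gave 127 of the 277 contacts, so most values pooled over the set are also given without it.

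**Figure D1:**
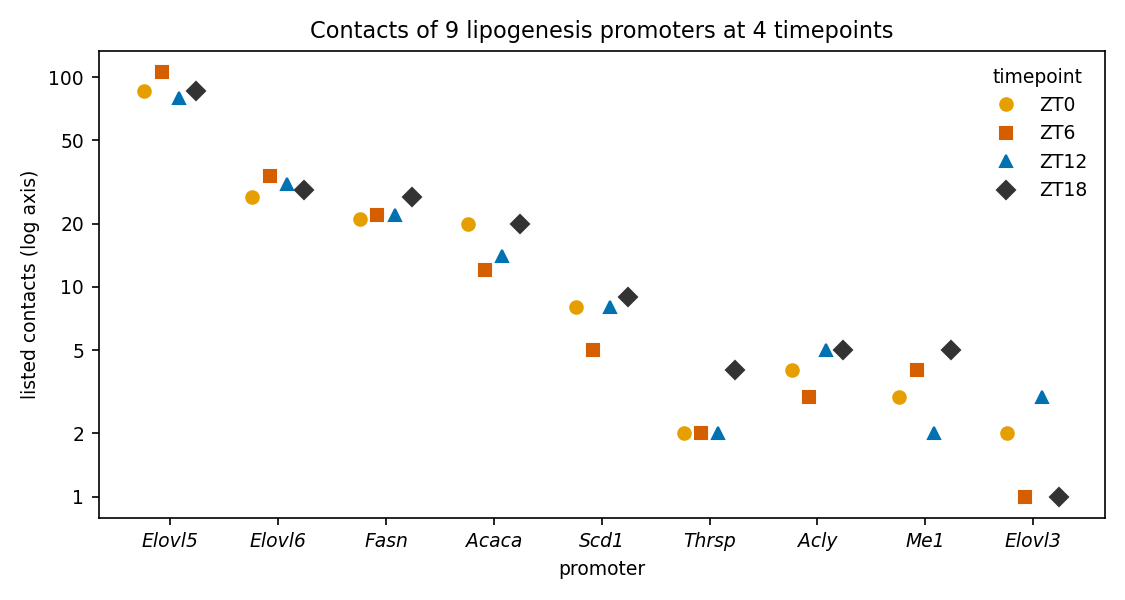
Listed contacts (log axis) of each of the 9 lipogenesis promoters, with a point for each timepoint. Elovl5 lies between 80 and 106 contacts, Elovl6, Fasn and Acaca between 12 and 34, and the other promoters at 9 or fewer.

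All 4 lists held 105 of the 277 contacts, or 37.9% (32.4 to 43.7%, 95% Wilson interval, counting error only), beside 32.5% of all interactions. Without Elovl5 the share was 28.7% (22.0 to 36.4%). A further 87 contacts were listed at 1 timepoint only (31.4%, beside 35.2% of all interactions), and 58 of these 87 scored under 6, close to the minimum of the lists. Without Elovl5 the share at 1 timepoint only was 36.7%. When a neighbouring fragment within 10 kb was accepted as the same contact, 80.5% were listed at all 4 timepoints and 6.50% at 1 only, beside 68.5% and 11.5% of the contacts of all baits. Without Elovl5, 108 of 150 were then listed at all 4. Elovl5 (62 of 127) and Acly (3 of 6) had the largest shares at all 4 timepoints, Acaca held 4 of 32, and none of the 3 Elovl3 contacts was listed throughout.

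**Figure D2:**
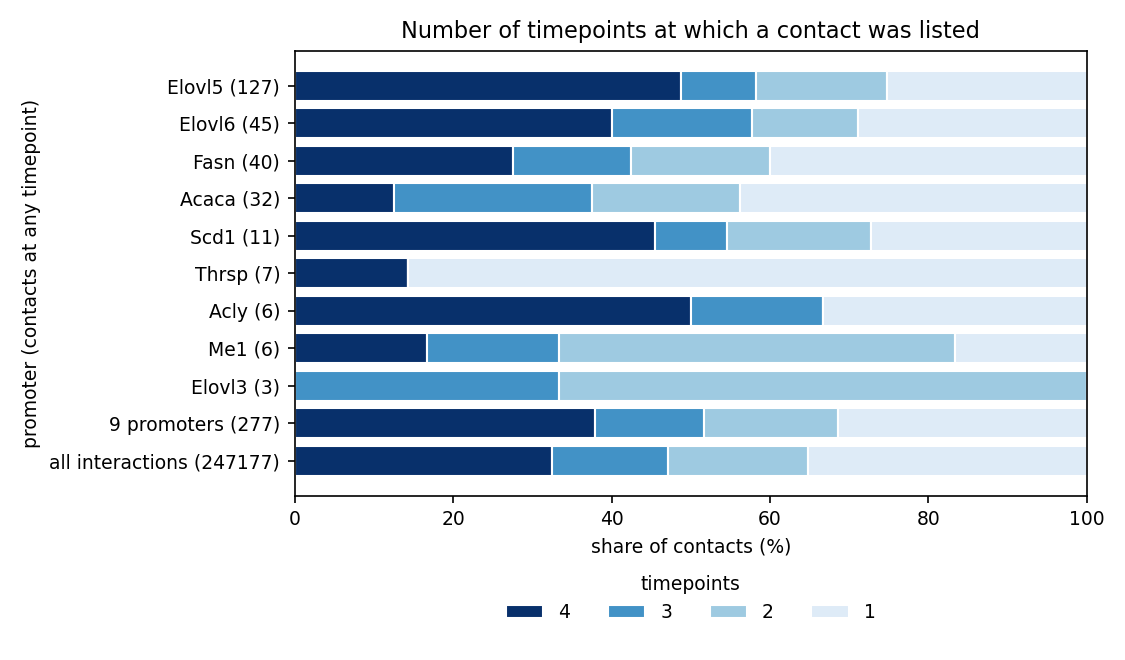
Share of contacts (%) listed at 4, 3, 2 or 1 of the 4 timepoints, for each promoter, for the 9 promoters together and for all interactions, with the number of contacts in brackets. The share at all 4 runs from 0 for Elovl3 to 50% for Acly, and is 37.9% for the 9 promoters and 32.5% for all interactions.

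The contacts stayed within the chromosome, as did nearly all interactions, of which 0.0801% ran between chromosomes. The median distance of the contacts between fragment midpoints was 122 kb (95% interval from order statistics 105 to 145 kb), beside 162 kb for all interactions. Without Elovl5 it was 110 kb. The interval treats contacts as independent, although many adjoin each other on the same promoter, and it does not cover differences between promoters. Medians of single promoters ran from 23.1 kb for Scd1 to 192 kb for Acaca, and those of Acaca, Elovl3 and Thrsp were above 162 kb. Scores of at least 10 at any timepoint were reached by 81 contacts (29.2%, beside 21.5% of all interactions), or 18.0% without Elovl5. A bait was present at both ends of 38 contacts (13.7%, beside 15.4%), or 22.7% without Elovl5. Inside the gene itself lay 58 contacts (20.9%), beside 8.71% of the contacts of protein-coding promoters. That last share depends on gene length, and 56 of the 58 belonged to Elovl6, Elovl5 and Acaca. No contact joined 2 of the 10 genes, which lie on chromosomes 3, 5, 7, 9, 11 and 19. The closest pair, Scd1 and Elovl3, starts at 44482199 and 46206387 on chromosome 19, much farther apart than the median distance.

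Acly, ATP-citrate lyase, makes the cytosolic acetyl-CoA of the pathway. Its promoter had 4, 3, 5 and 5 contacts at ZT0, ZT6, ZT12 and ZT18, and 5 of its 6 partners were promoter fragments. The strongest held the start of Ttc25, 13.0 kb upstream, with scores of 10.1, 12.88, 14.49 and 12.22. The fragment with the start of Cnp followed, with 5.28, 6, 9.23 and 7.94. The starts of Hcrt, which encodes the neuropeptide orexin, and Kcnh4 shared a fragment listed at ZT12 only, at a score of 5.04.

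Acaca encodes acetyl-CoA carboxylase 1, which makes the malonyl-CoA used for synthesis in the cytosol. Its bait also holds the start of Tada2a, a transcriptional coactivator subunit, and contacts of the 2 genes cannot be told apart. It had 20, 12, 14 and 20 contacts at ZT0, ZT6, ZT12 and ZT18, lowest at ZT6. No score reached 10. The highest, 9.29 at ZT6, belonged to a fragment without annotated genes 338 kb upstream, which scored 5.28 at ZT0, 8.21 at ZT12 and 6.71 at ZT18. In the same block, from 83561486 to 83633257 on chromosome 11, 14 fragments were contacted, among them the start of Heatr6 with scores of 5.92, 6.26, 8.38 and 6.31. Downstream, 13 contacts lay inside Acaca, and the fragment holding the start of Gm17722 was listed at ZT0 only (8.29). With neighbouring fragments within 10 kb accepted, 21 of 32 contacts in place of 4 were listed at all 4 timepoints.

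Acacb encodes acetyl-CoA carboxylase 2, the mitochondrial form whose malonyl-CoA restrains fatty acid oxidation. The fragment with its start (chr5:114593718-114599123) was in none of the lists, as bait or as other end, and no listed fragment overlapped the gene. The nearest bait, that of Usp30, lay 45.7 kb away. No contact value is therefore given for Acacb, and its absence is no measurement of few contacts.

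Fasn encodes fatty acid synthase, which assembles palmitate. Its promoter (bait chr11:120679946-120689066) had 21, 22, 22 and 27 contacts at ZT0, ZT6, ZT12 and ZT18. They fell into 10 regions, of which the strongest was a run of neighbouring fragments in Ccdc57, a coiled-coil gene upstream of Fasn. In this run 8 fragments between 120747945 and 120771935, with midpoints 64.9 to 83.8 kb upstream, were listed at all 4 timepoints. Median scores over the 8 were 10.6, 7.51, 15.0 and 11.3 in the same order. The run held 9 contacted fragments in all. The remaining one, from 120746769 to 120747944, scored 5.06 at ZT0 and 6.85 at ZT6 and was not listed at ZT12 or ZT18.

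All 8 had their highest score at ZT12, and 6 of the 8 their lowest at ZT6. By rank of the score within its list, 7 of the 8 were highest at ZT12. The widest range was that of the 218 bp fragment printed above, which overlaps an exon of Ccdc57. It scored 9.53, 6.99, 22.56 and 13.01. The neighbouring 351 bp fragment scored 11.66, 6.6, 14.96 and 10.33, and a fragment in an intron of Ccdc57 at 75.8 kb scored 14.25, 13.17, 18.11 and 14.93. The smallest range was that of a fragment with 8, 7.25, 8.05 and 6.93, nearly equal at ZT0 and ZT12. The difference between timepoints was thus not of the same size along the run. Neighbouring fragments share chromatin and are not independent.

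Elsewhere the Fasn promoter met the start of Mafg, a small MAF transcription factor, 190 kb downstream. That contact scored 14.65, 12.79, 18.72 and 19.88, highest at ZT18. Over all Fasn contacts listed at 4 timepoints, 9 of 11 were highest at ZT12 and the other two at ZT18. Among all interactions listed at 4 timepoints, 25.6% were highest at ZT12. Of the 3750 baits with at least 8 such contacts, 1.01% had at least 80% of them highest at the same timepoint. For ZT12 this share was 0.213%. Those limits were set after the Fasn values were seen, so the shares are no test of Fasn. The 8 neighbouring fragments in Ccdc57 made up most of its 11 contacts. Other promoters had 3 contacts with the same Ccdc57 fragments at all 4 timepoints, and 2 of these were highest at ZT12.

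Contacts of Fasn listed at 1 timepoint had lower scores. The fragment with an exon of Lrrc45 was listed at ZT12 only (8.36) and the start of Cd7, a T cell surface antigen, at ZT6 only (7.45). Starts of other genes lay on 13 of the contacted fragments, among them Sirt7, Pcyt2, Csnk1d and Notum, which were chosen after their values were seen. The bait of Cbr2, Dcxr and Rac3 was most alike in its contacts, with 28 fragments shared of 77 contacted by either promoter (36.4%).

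**Figure D3:**
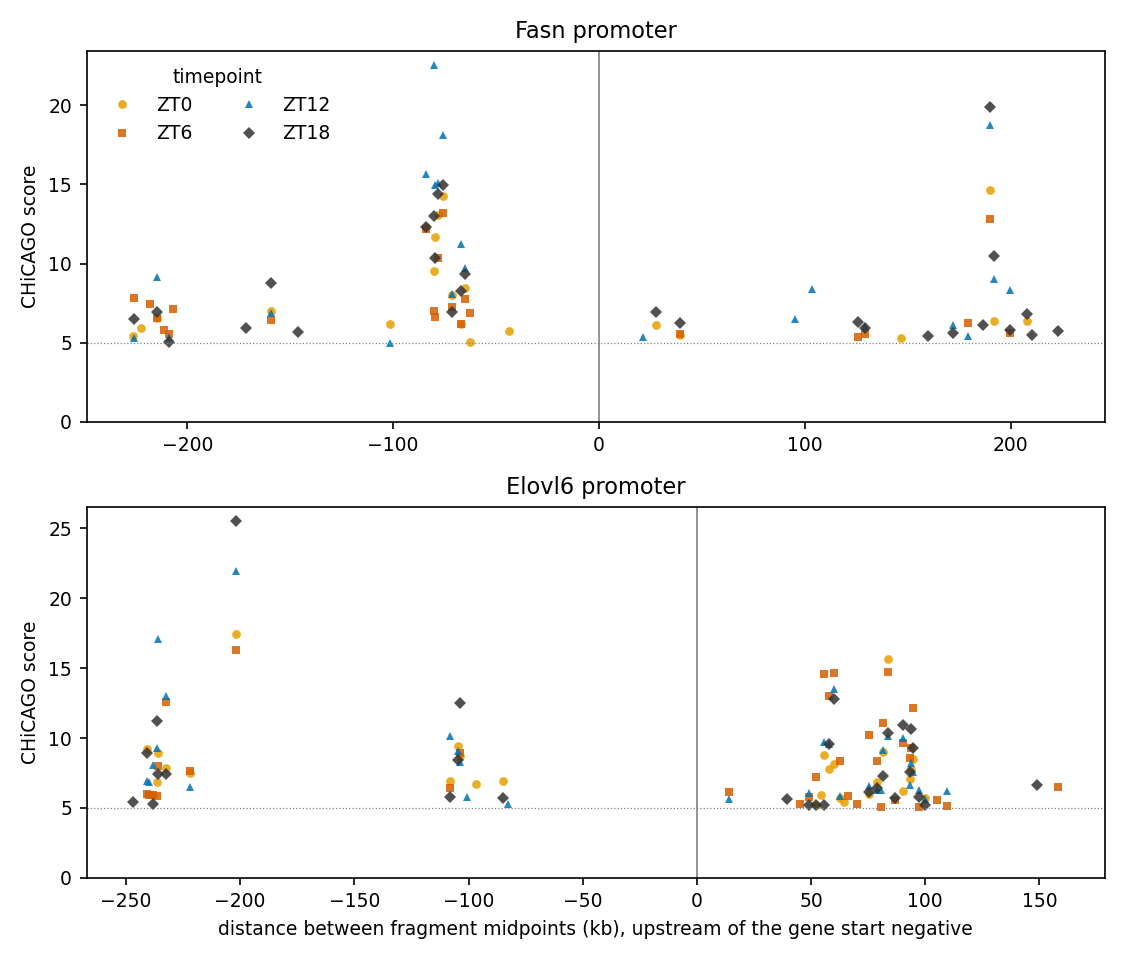
CHiCAGO score of every contact of the Fasn (top) and Elovl6 (bottom) promoters against the distance between fragment midpoints in kb, upstream negative, with a symbol for each timepoint and the lowest listed score of 5 dotted. The group about 64.9 to 83.8 kb upstream of Fasn is highest at ZT12, and 8 of 11 contacts inside Elovl6 that were listed at all timepoints are highest at ZT6.

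Me1, malic enzyme 1, supplies NADPH for the synthesis. Its bait also holds the start of A330041J22Rik. It had 3, 4, 2 and 5 contacts, 5 of its 6 partners lying upstream in and before Prss35. The fragment with the start of Prss35 scored 7.15, 9.41, 9.09 and 12.94 at ZT0, ZT6, ZT12 and ZT18, and it was the only Me1 contact listed at all 4 timepoints. An adjoining fragment in an intron of Prss35 scored 7.6, 7.06 and 8.49 at ZT0, ZT12 and ZT18 and was not listed at ZT6.

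Elovl6 elongates palmitate to stearate. Its promoter (bait chr3:129235011-129238025) had 27, 34, 31 and 29 contacts at ZT0, ZT6, ZT12 and ZT18. The highest scores were with the start of Enpep, which encodes aminopeptidase A, 202 kb upstream: 17.42, 16.26, 21.96 and 25.52. A 352 bp fragment in an intron of Enpep scored 17.07 at ZT12 and between 7.44 and 8.91 at the other timepoints.

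Inside the Elovl6 gene 26 fragments were contacted, 11 of them at all 4 timepoints. Over these 11 the median scores were 7.80, 11.1, 9.14 and 9.29 in the order of the timepoints. The highest score was at ZT6 in 8 of the 11 (26.1% among all interactions), with values such as 8.8, 14.59, 9.7 and 5.23 for the fragment 55.9 kb from the bait. The strongest intronic contact, 83.8 kb downstream, was instead highest at ZT0, with 15.63, 14.7, 10.17 and 10.38. Of the 7 contacts outside the gene that were listed at all 4 timepoints, none was highest at ZT6, 3 were highest at ZT12 and 3 at ZT18. Of all 18 Elovl6 contacts listed at all 4 timepoints, 8 were highest at ZT6. Neighbouring fragments inside the gene are not independent, so the share over all interactions is no test. The grouping into inside and outside was chosen after the values were seen, and the difference between the groups was not tested.

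The Enpep promoter was most alike in its contacts, with 23 fragments shared of 75 (30.7%). It had 24, 38, 33 and 30 contacts, and like that of Elovl6 its number was highest at ZT6 and lowest at ZT0. Enpep also met 4 of the 11 fragments in Elovl6 at all timepoints, and 3 of these 4 were highest at ZT6.

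Elovl5 elongates polyunsaturated fatty acids. Its promoter (bait chr9:77762103-77768578) had 86, 106, 80 and 86 contacts at ZT0, ZT6, ZT12 and ZT18, and its total of 127 was above that of 99.8% of baits. The contacts formed a broad field on both sides, with 64 upstream and 63 downstream. Of these, 54 reached a score of 10. The highest scores came from stretches without annotated genes, 88.6 kb downstream (27.14, 30.19, 41.4 and 33.99), 98.0 kb upstream (30.45, 25.92, 35.62 and 40.49) and 109 kb upstream (34.91, 32.63, 30.69 and 32).

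The number of Elovl5 contacts varied between timepoints mostly at long distance. Within 150 kb there were 69, 72, 65 and 65 contacts, and beyond 150 kb 17, 34, 15 and 21. ZT6 thus had 3 more near contacts than ZT0 but 17 more far ones. Of the 77 near contacts 59 were listed at all 4 timepoints, against 3 of the 50 far ones. Contacts listed at ZT6 only numbered 18, of which 11 lay between 200 and 400 kb. Far contacts had low scores, with a median highest score of 6.3 between 200 and 400 kb beside 19.0 between 50 and 100 kb. At a score of at least 7, 2, 9, 4 and 8 far contacts were left.

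The share of Elovl5 contacts beyond 150 kb was 19.8%, 32.1%, 18.8% and 24.4%. It was lower than in the whole lists, where it ran from 47.1% to 49.9%, and than in the 110 baits with at least 100 contacts, where the median share was between 60.9% and 62.7%. Few promoter fragments were among the partners: 4 of 127 held a bait (3.15%), with the starts of Gclc, which encodes a subunit of the enzyme that starts glutathione synthesis, of Gcm1, of Fbxo9 and Ick, and of an annotated SNORA17 copy. The Gcm1 contact scored 8.78 at ZT0 and 5.29 at ZT6 and was not listed later. The bait with SNORA17 shared 89 of 159 fragments with Elovl5 (56.0%). Its own contacts numbered 83, 92, 102 and 88, most at ZT12, where Elovl5 had its fewest.

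**Figure D4:**
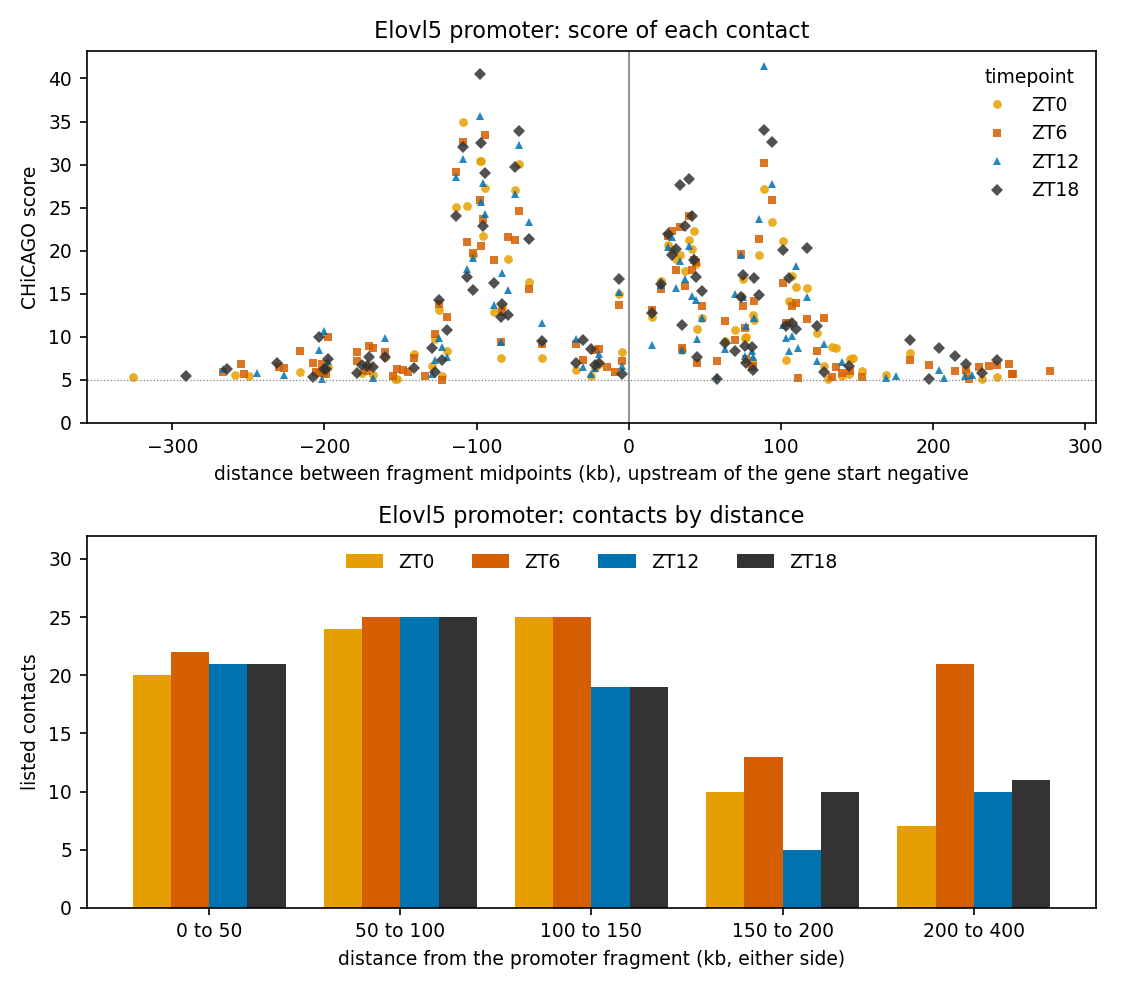
Top, CHiCAGO score of every Elovl5 contact against the distance between fragment midpoints in kb, upstream negative, by timepoint. Bottom, number of contacts per distance class and timepoint: 24 or 25 at every timepoint from 50 to 100 kb, but 7, 21, 10 and 11 at ZT0, ZT6, ZT12 and ZT18 from 200 to 400 kb.

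Elovl3 makes very long saturated and monounsaturated fatty acids. Its promoter had 2, 1, 3 and 1 contacts, all with promoter fragments. The start of Nolc1, 51.8 kb upstream, scored 6.63 at ZT0 and 6.51 at ZT12. The start of Nfkb2, an NF-kappaB subunit, scored 7.05 at ZT12 and 5.05 at ZT18. The fragment with the starts of Cuedc2, Mir146b and Tmem180 scored 6.42, 5.52 and 6.68 at ZT0, ZT6 and ZT12. All 3 were listed at ZT12.

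Scd1, stearoyl-CoA desaturase 1, makes oleate from stearate. Its promoter had 8, 5, 8 and 9 contacts, and 8 of its 11 partners lay between 44443036 and 44468077 on chromosome 19, downstream of the gene. The strongest, a 622 bp fragment 18.2 kb from the bait, scored 11.06, 8.33, 11.81 and 12.58, lowest at ZT6. The next scored 9.28, 7.46, 6.35 and 8.9. The farthest partner, with the start of Sema4g at 584 kb, scored 5.36 at ZT0 and 5.24 at ZT18.

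Thrsp encodes Spot 14, a protein that responds to thyroid hormone and promotes lipogenesis. Its bait, which also holds the start of Gm16053, had 2, 2, 2 and 4 contacts. A 318 bp fragment, 10.2 kb from the midpoint of the bait and 0.618 kb from its edge, scored 5.87, 8.91, 13.68 and 10.74, highest at ZT12. The other 6 contacts were each listed at 1 timepoint, among them the start of Aqp11, an aquaporin, at ZT18 (7.68), and an exon of Ints4 at ZT18 (6.33).

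Timepoints 12 h apart were compared by the ratio of the numbers of contacts, each divided by the total of its list, for promoters with at least 10 contacts over both timepoints. A ratio of at least 1.5 either way was counted. Between ZT0 and ZT12, none of 5 lipogenesis promoters passed, beside 21.8% of all 9084 promoters. Acaca came closest, with 20 and 14 contacts and a ratio of 1.48. Between ZT6 and ZT18, Acaca and Scd1 passed, beside 22% of 9240 promoters and 11.7% in the direction of more contacts at ZT18. Acaca had 1.70 times and Scd1 1.84 times as many contacts at ZT18 as at ZT6, while Fasn had 1.26 times. Elovl6 and Elovl5 had 0.872 and 0.830 times as many at ZT18. With fragments within 10 kb merged into regions at each timepoint, the ratio of ZT6 over ZT18 was 0.838 in place of 1.15 for Elovl6. For Elovl5 it was 0.711 in place of 1.21. Contacts that fill a gap join regions and can lower their number, so these ratios do not show fewer contacts at ZT6. With the same merging the ratio of ZT6 over ZT18 for Acaca was 0.869 in place of 0.587 and no longer passed, and Scd1 had fewer than 10 contacts left, as both had at a score of at least 7. With equal numbers of pairs per list Acaca was at 0.706 and did not pass.

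After division by the list totals, most contacts were found at ZT18 for Fasn, Acly, Me1, Scd1 and Thrsp, which is 5 of 9 beside 26.6% of all baits. Elovl6 and Elovl5 had most at ZT6 (21% of all baits), Acaca at ZT0 (31.4%) and Elovl3 at ZT12 (21%). For Acly the numbers at ZT12 and ZT18 were both 5, and for Acaca those at ZT0 and ZT18 were both 20. The list of ZT0 is the shortest, so a tie with ZT0 falls to ZT0, for all baits as well. The timepoint depended on how fragments were counted. Merged within 10 kb, Elovl5 had 10, 8, 12 and 11 regions, with the fewest at ZT6. Elovl6 had 4, 6, 6 and 7, with the most at ZT18, and Fasn had 9, 6, 8 and 8, with the most at ZT0. Acaca had 8, 8, 7 and 9, with the most at ZT18. Regions were joined within each timepoint, so contacts that fill a gap can lower their number. Over all timepoints together Elovl5 had 9. Of the 6 genes that carry an acrophase, the time of highest expression, on the list of circadian genes, Acly and Fasn had theirs at ZT18, where their contacts before merging were most numerous, and the share of baits with most contacts at ZT18 was 26.6% over all baits. The acrophases of other circadian promoters were not set against their contacts here. The acrophase differed from the timepoint of most contacts for Acaca, Elovl6 and Thrsp (acrophase ZT12) and Elovl3 (ZT0). In the other order of the lists, the most contacts of Acly, Fasn and Thrsp fall at ZT12, the acrophase of Thrsp but not of Acly or Fasn. RNA levels were not analysed here.

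The wider pathway was read from a list of 40 genes for regulators, cofactor supply, further desaturases and elongases, and triglyceride synthesis, of which 36 had a bait. They had 730 distinct contacts, and 40.0% were listed at all 4 timepoints, beside 37.9% for the lipogenesis promoters. None of these contacts reached a lipogenesis promoter, and within the list a single pair, Fads1 with Fads2, was joined, with scores of 58.71, 58.1, 52.09 and 56.27. These neighbouring genes encode the delta-5 and delta-6 desaturases. Between ZT6 and ZT18, 6 of 24 promoters had at least 1.5 times more contacts at ZT18, among them Aacs, Insig2, Lpin1, Mlx and Mlxipl, beside 11.7% of all promoters, and Acsl3 had more at ZT6 (10.3%). Mlxipl and Mlx, which encode ChREBP and its partner, had 6, 5, 5 and 8 and 22, 15, 17 and 26. Between ZT0 and ZT12, Fads1 and Nr1h3 had more contacts at ZT0 and Lpin1 and Nr1h2 at ZT12, of 25 promoters, beside 10.5% and 11.3% of all promoters.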

How the data were processed

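P-CHi-C lists of 4 timepoints were analysed. Sequenced reads had been processed with HiCUP against build mm9 (the build named per the labels), the pools of a timepoint merged, and interactions called with CHiCAGO by the authors. Each deposited pair carries a CHiCAGO score, and pairs that scored under 5 are absent. More reads let more pairs pass this minimum, and the read depth was not analysed here. The number of columns of per-sample values left unused was 0.

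Pairs were treated as unordered. Timepoints followed the labels. The genome was cut at HindIII sites into 823377 fragments, which matched 129886 of 129887 listed fragments exactly. Gene starts came from GENCODE vM1, and sequences from the mm9 genome. Contacts named are, per promoter, the 3 with the highest score and the 2 highest listed at no more than 2 timepoints, with the genes on them, any contact joining genes of the lists, and the promoter sharing most contacted fragments. Members and lists were chosen with earlier results of these data known. Some genes and promoter sequences are not reported here. Shares have Wilson intervals. Python 3.11.15, numpy 2.4.6, scipy 1.17.1 and matplotlib 3.10.9 were used. The statistics were tested on simulated lists. Alternatives were other score minimums, equal list sizes, a tolerance of 10 kb, all transcript starts, the nearest bait, another order of the lists and, chosen after seeing the data, ranks of scores and the set without Elovl5.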

Additional observations from a re-analysis of the deposited data

How the results depend on the processing

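Of 106 alternative values, 32 moved beyond their range, 2 ratios lost their call and 2 called ratios reversed. Some of the 106 could not change, among them the counts with the nearest bait within 5 kb, as no bait lay so near the Acacb start. The counts at ZT0 with equal list sizes or with the other order of the lists were also fixed in advance. Among 34 alternative values of ratios, 10 lay on the other side of 1, and 8 of these belonged to ratios under 1.5-fold. With fragments within 10 kb merged, these were ZT0 over ZT12 for Fasn (1.17) and Elovl5 (0.863) and ZT6 over ZT18 for Elovl6 (0.838) and Elovl5 (0.711). Merged values count regions joined within a timepoint, whose number can fall as contacts fill gaps. At a score of at least 7 the contacts at ZT0, ZT6, ZT12 and ZT18 numbered 92, 104, 104 and 104, at a score of at least 10 they numbered 52, 59, 57 and 62, and without Elovl5 they numbered 87, 83, 87 and 100. Contacts listed at all 4 timepoints made up 53.1% when every timepoint had to reach a score of 10, 97.5% for contacts that reached 10 at any, 80.5% with a tolerance of 10 kb and 28.7% without Elovl5, and the share at 1 timepoint only was 6.50% with that tolerance. The 2 shares with a score of 10 are given without a value over all interactions, so they show nothing particular to these promoters. At a score of at least 10 the median distance was 81.9 kb and the share with a bait at both ends 6.17%, and this share was 22.7% without Elovl5. Of the 2 promoters with a ratio of at least 1.5 between ZT6 and ZT18, 0 were left at a score of at least 7, where both had under 10 contacts, and 0 with fragments within 10 kb merged, where Scd1 had under 10, and 1 when lists were cut to equal numbers of pairs by score. The Acaca ratio of ZT6 over ZT18 was 0.706 with equal numbers of pairs and 0.869 with merging. The study's summary statistics attach the list totals of ZT6, ZT12 and ZT18 to different timepoints than the sample labels do. In that order 1 promoter passed between ZT6 and ZT18, the ratios of Acaca (1.19) and Scd1 (1.63) reversed, those of Fasn (1.02), Elovl6 (0.931) and Elovl5 (0.771) also changed sides, as did ZT0 over ZT12 for Scd1 (0.920), 0 of the Fasn contacts in Ccdc57 were highest at ZT12, 0 of the Elovl6 contacts in its gene were highest at ZT6, and the Elovl5 contacts beyond 150 kb numbered 15 at ZT6 and 34 at ZT18. Every statement on a named timepoint other than ZT0 therefore rests on the sample labels. At a score of at least 7 the Elovl5 contacts beyond 150 kb numbered 2, 9, 4 and 8. The values without Elovl5, those on the timepoint of the highest score, also by rank, and those on far Elovl5 contacts were chosen after seeing the data. The cause of these changes was not tested, other than that a higher minimum leaves fewer pairs. No paired analysis was possible because each timepoint is a single list from merged pools, which also prevented leaving out a replicate. Presence in a list depends on the score minimum and on depth. A contact missing at a timepoint did not reach a score of 5 there and is not shown to be absent.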
